A study of Mus musculus with 308 samples.

Results

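The genes examined here encode nuclear subunits of the mitochondrial respiratory chain and of ATP synthase. They were taken as the probe sets whose only gene symbol begins with Nduf followed by a, b, c, s or v and a digit, with Uqcr, with Cox followed by 4 to 8, or with Atp5. The rule gave 75 genes of 17097 on the array, measured by 128 of the 28898 probe sets that carry a single gene symbol. By name, 34 genes belong to complex I, 7 to complex III, 17 to complex IV and 17 to complex V. The symbols are those of the array's annotation: Ndufa4 is counted with complex I by name although its protein is known as a subunit of complex IV, Cox7a2l is known as an assembly factor of supercomplexes, and Ndufs5-ps is a pseudogene symbol. Complex II was outside the rule.

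The study measured RNA from 7 tissues of C57Bl/6 mice on 308 arrays. Dosing was daily over 10 days, and tissues were taken 12 h after the last dose. The groups were DMF (dimethyl fumarate) at 100 mg/kg, DMF at 179.2 mg/kg, MEF (monoethyl fumarate) as a mixture of its calcium, magnesium and zinc salts at 79.2 mg/kg, DMF at 100 mg/kg combined with the MEF salts at 79.2 mg/kg, a group labelled Nav whose name the labels do not explain, and vehicle, 0.8% hydroxypropyl methylcellulose. Each tissue had 5 to 8 arrays in a group. Array titles set the groups. The arrays of a group carry different numbers, and no label says that a number is 1 mouse, so the p-values measure the spread between these arrays. Values are log2 expression, the tissues were normalized apart, and each gene was measured by its brightest probe set. A gene was tested in a tissue where at least 5 arrays lay above the tissue's median probe set, which left 69 to 72 of the 75 genes. Cox7b2 and Cox8c passed in no tissue, Ndufa4l2 passed in the kidney and brain, Cox4i2 in the 2 lymph nodes, Cox7a1 in the jejunum, kidney and brain, and Cox8b in all but the spleen, brain and blood. The tissues carried the markers of their labels. All 6 enterocyte markers on the array passed in the jejunum and all 5 of the proximal tubule in the kidney. All 5 of neurons passed in the brain, and all 7 of B cells in both nodes, the spleen and the blood. The 7 B cell markers also passed in the jejunum, so passing the filter does not single out the lymphoid tissues. All 5 adipocyte markers passed in the jejunum, the kidney and both nodes, so the node samples also held fat cell RNA. In the mesenteric node the median vehicle level was 11.58 for the adipocyte markers and 11.18 for the B cell markers.

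Complex I takes electrons from NADH, complex III passes them to cytochrome c, complex IV hands them to oxygen, and complex V uses the proton gradient that these make to produce ATP. All 4 complexes combine subunits encoded in the mitochondrial genome with the nuclear subunits described here, and their nuclear genes are known to share binding motifs for the transcription factors NRF-1 and GABP. Fumarate esters are known to activate a different factor, Nrf2, which binds the antioxidant response element and drives Nqo1, a quinone reductase.

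The sequences just upstream of the start sites show the first of these features. RefSeq promoters on the GRCm38.p6 build, each covering 250 bases before to 50 bases after the start, were found for 60 of the 75 genes, 65 promoters in all. The NRF-1 motif, searched on both strands, was in 15 of the 65 (23.1%), against 4.6% of all 32851 promoters. The GABPA motif, CCGGAAG on both strands, was in 13 (20.0%), against 8.9% of all promoters. The YY1 motif, AAGATGG on both strands, was in 11 (16.9%), against 6.3%. The antioxidant response element, TGACNNNGC on both strands, was in 9 (13.8%), close to the 12.4% of all promoters. Some motif matches of one kind can overlap one another, and a match is only a description of the letters. The 4 promoters below, 1 from each complex, were chosen after the values were seen, as genes that rose in several tissues or treatments and hold at least 1 match, and the capitals mark the NRF-1 matches in Ndufb4 and Uqcrc1 and the GABPA matches in Cox8a and Atp5l.
Ndufb4, complex I, chr16:37654319-37654618, minus strand: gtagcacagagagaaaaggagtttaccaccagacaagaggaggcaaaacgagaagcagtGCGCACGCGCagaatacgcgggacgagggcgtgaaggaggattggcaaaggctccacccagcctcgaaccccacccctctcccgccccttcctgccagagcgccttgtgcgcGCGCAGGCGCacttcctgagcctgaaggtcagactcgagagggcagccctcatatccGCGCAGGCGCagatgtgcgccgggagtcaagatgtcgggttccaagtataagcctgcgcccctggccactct
Uqcrc1, complex III, chr9:108936398-108936697, plus strand: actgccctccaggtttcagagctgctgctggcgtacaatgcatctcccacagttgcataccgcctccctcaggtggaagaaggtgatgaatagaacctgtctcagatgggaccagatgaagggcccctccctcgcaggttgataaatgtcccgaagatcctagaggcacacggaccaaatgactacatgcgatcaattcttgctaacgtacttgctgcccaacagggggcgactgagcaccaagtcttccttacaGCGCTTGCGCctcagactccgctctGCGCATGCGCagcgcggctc
Cox8a, complex IV, chr19:7217567-7217866, minus strand: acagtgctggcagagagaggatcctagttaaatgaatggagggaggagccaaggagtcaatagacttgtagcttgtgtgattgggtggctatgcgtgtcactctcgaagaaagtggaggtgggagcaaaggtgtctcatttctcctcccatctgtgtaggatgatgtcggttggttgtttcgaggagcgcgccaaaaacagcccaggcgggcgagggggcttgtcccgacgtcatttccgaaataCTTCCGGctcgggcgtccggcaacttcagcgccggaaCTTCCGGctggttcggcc
Atp5l, complex V, chr9:44920693-44920992, minus strand: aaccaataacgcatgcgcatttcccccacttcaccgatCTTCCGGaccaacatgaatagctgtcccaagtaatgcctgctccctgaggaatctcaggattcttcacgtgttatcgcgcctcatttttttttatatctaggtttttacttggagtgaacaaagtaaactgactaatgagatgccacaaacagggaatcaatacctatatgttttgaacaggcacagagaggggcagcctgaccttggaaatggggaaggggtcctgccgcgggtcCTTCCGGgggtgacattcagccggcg
Ndufb4 held 3 NRF-1 matches, which start at positions 60, 172 and 229 of the 300-base window, with the start site at position 251. In Uqcrc1 the matches begin at 256 and 281, after the start site. In Cox8a the GABPA matches begin at 246 and 283, and in Atp5l at 39 and 275, each read on the opposite strand as CTTCCGG.

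Across the 28 comparisons of a DMF or MEF group with vehicle, 114 of 1976 pairs of gene and comparison passed the test (limma, adjusted p under 0.05 over all genes tested in that tissue). Of these, 100 rose and 14 fell. Dose and tissue divided them unevenly. DMF at 100 mg/kg gave no call among the genes in any tissue, beside 1.85% of all genes called in the mesenteric lymph node, 0.996% in the jejunum, 0.834% in the spleen, 8.09% in the kidney, 1.69% in the inguinal lymph node, 0.4% in the brain and 0.26% in the blood. The mesenteric node held 44 of the calls and all 44 rose. The kidney held 27, of which 19 rose and 8 fell. The jejunum held 21 (19 rose, 2 fell), the spleen 18 (16 rose, 2 fell), the brain 3 (2 rose, 1 fell), the blood 1, which fell, and the inguinal node none. Several of these counts lay near or below the share of all genes called. In the kidney, 9.72% of these genes and 16.7% of all genes were called under DMF at 179.2 mg/kg. The shares there were 23.6% and 30.3% in the combination, and 4.17% and 14.2% under MEF. Under DMF at 179.2 mg/kg they were 25.4% and 27.4% in the jejunum, and 26.1% and 24.4% in the spleen. Those of the mesenteric node are given below. The changes were small. Among the calls in the DMF and MEF groups, Cox6b2 alone reached 1.5-fold, in the spleen under DMF at 179.2 mg/kg and in the mesenteric node in the combination.

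**Figure D1:**
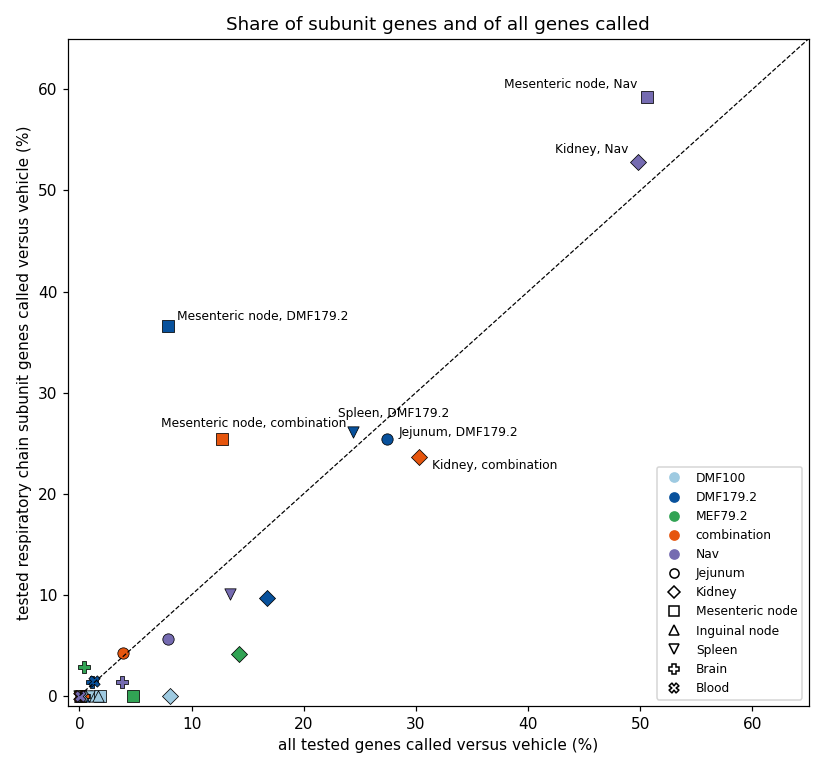
Percent of the tested respiratory chain genes (vertical axis) against percent of all tested genes (horizontal axis) called at an adjusted p under 0.05, with 1 point for each tissue (shape) and comparison with vehicle (colour); the dashed line marks equal shares. In the mesenteric node under DMF at 179.2 mg/kg the share of these genes was 36.6%, against 7.88% of all genes, whereas in the spleen it was 26.1% against 24.4%.

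**Figure D2:**
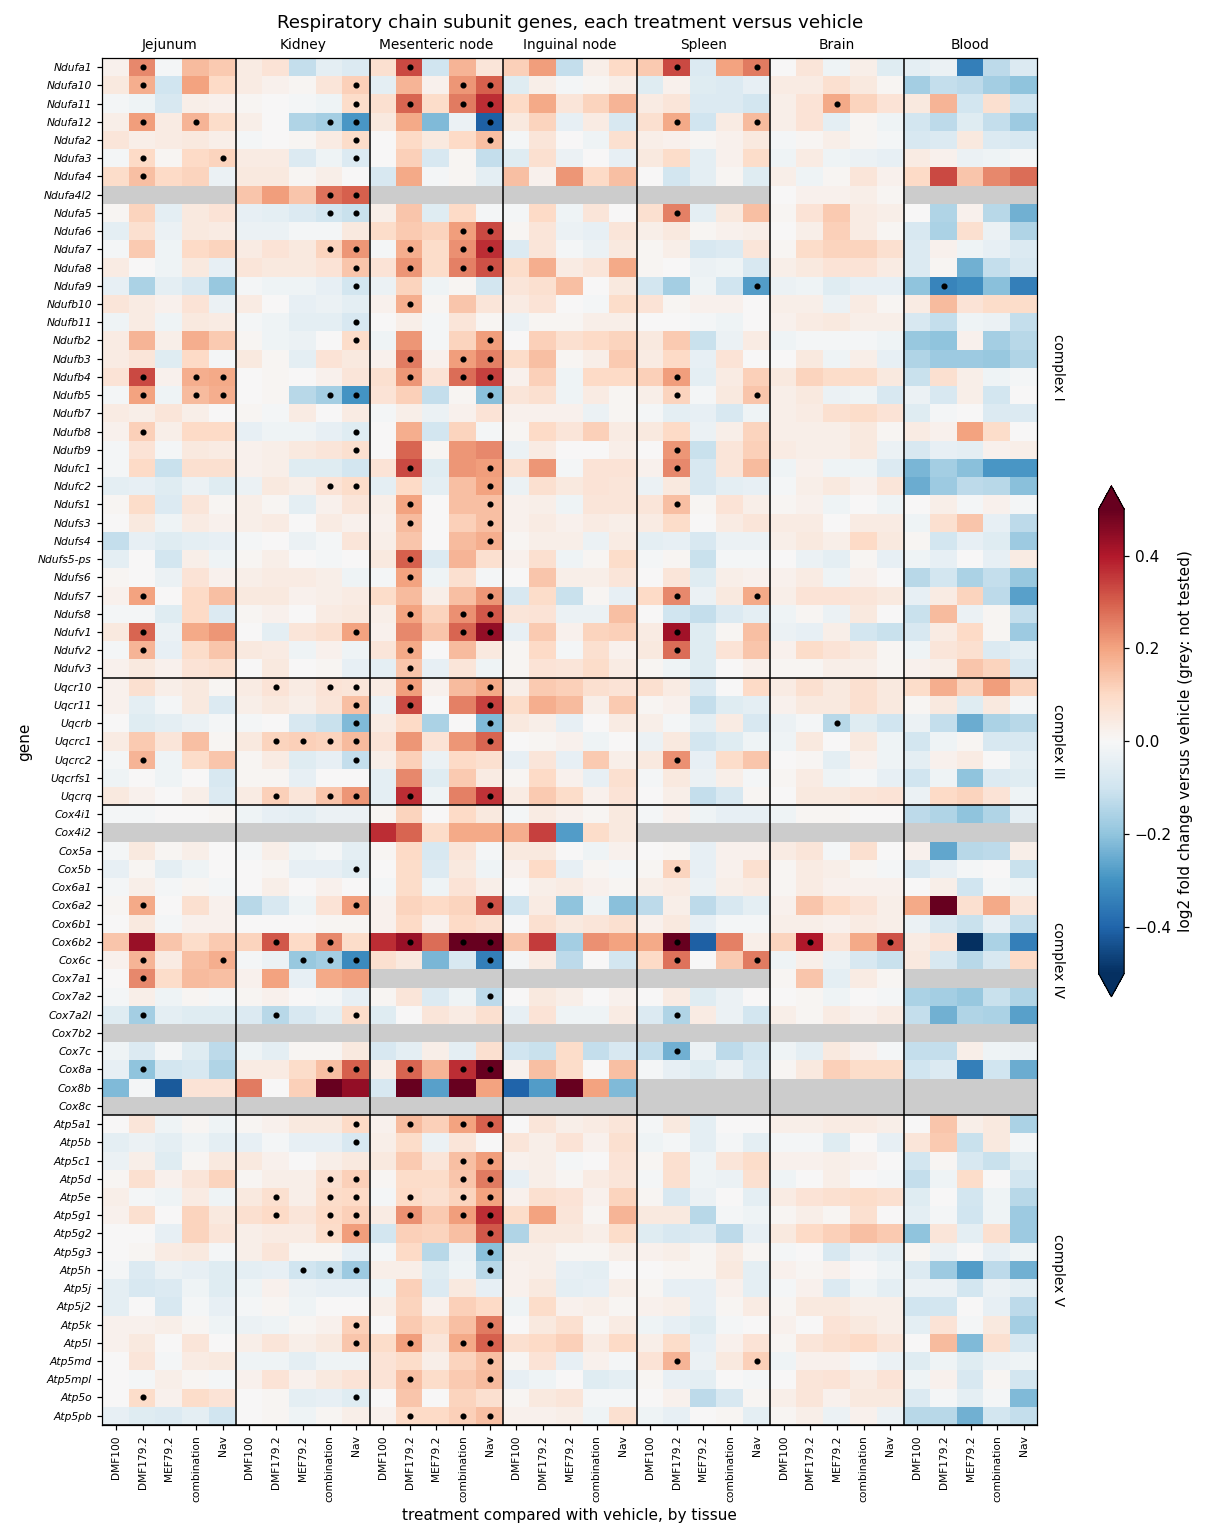
Log2 difference from vehicle for each respiratory chain gene (rows, by complex) in each tissue and group (columns); blue is lower and red higher than vehicle, grey was not tested, and dots mark calls at an adjusted p under 0.05. The mesenteric node columns for DMF at 179.2 mg/kg and the combination are nearly all above 0, and the inguinal node has no dot.

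The mesenteric lymph node drains the gut, and here the differences of the chain lay nearly all in one direction under DMF at 179.2 mg/kg. Of the 71 genes tested, 26 rose and none fell, beside 7.88% of all genes called, of which 6.15% of all genes rose. In all, 70 of the 71 differences lay above 0, and the median was 0.14 on the log2 scale, against 0.02 for all genes. The genes were measured on the same arrays, so their directions are not separate results. Of the calls, 15 came from complex I, 3 from complex III, 2 from complex IV and 6 from complex V. The mean over the 71 genes was 10.83 in the lowest array, 10.93 in the middle and 11.14 in the highest of 8 arrays under DMF at 179.2 mg/kg, against 10.71, 10.80 and 10.91 in 8 vehicle arrays. The 2 groups overlapped, since the lowest treated arrays lay within the vehicle range. Bulk tissue cannot tell fewer cells of a type from less RNA per cell. When each array was centred on its own median the number that rose was 11, and the share of all calls in this comparison that rose was 43%, against 78% before. Fitted with vehicle as a pair alone, 10 genes were called.

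Within complex I, Ndufa11, a membrane subunit, was measured at 10.59, 10.75 and 10.99 (lowest, median and highest of 8 arrays) under DMF at 179.2 mg/kg, against 10.35, 10.47 and 10.57 in vehicle. All 8 treated arrays lay above the highest vehicle array, and the difference was 0.29 ± 0.06 (SE, adjusted p = 0.0056). The same gene reached 10.54, 10.72 and 10.9 in the 6 combination arrays, with 5 of 6 above every vehicle array and a difference of 0.26 (adjusted p = 0.0145). Ndufc1, a small accessory subunit, had 11.19, 11.48 and 11.78 against 10.99, 11.11 and 11.4 in vehicle. Its difference was 0.33 ± 0.08 (adjusted p = 0.0107), and 5 arrays cleared the vehicle range. Ndufs1, the largest of the core subunits that carry iron-sulfur clusters, had 9.84, 10.03 and 10.28 against 9.66, 9.87 and 10.11 in vehicle. The groups overlapped and 3 arrays lay above the vehicle range, with a difference of 0.20 ± 0.06 (adjusted p = 0.0266). Ndufs3, Ndufs8 and Ndufv2, other core subunits, rose by 0.16, 0.20 and 0.19. The pseudogene symbol Ndufs5-ps rose by 0.30, and its probe set may share its sequence with Ndufs5.

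In complex III, 3 of 7 genes rose. Uqcrq, a small subunit of the complex, had 10.24, 10.51 and 10.95 under DMF at 179.2 mg/kg, against 10.03, 10.18 and 10.49 in vehicle. Of 8 arrays, 5 lay above the vehicle range, and the difference was 0.37 ± 0.10 (adjusted p = 0.018). At 100 mg/kg of DMF the same gene stood at 10.08, 10.17 and 10.35, inside the vehicle range at a difference of -0.05 (adjusted p = 0.886). Uqcr11, another small subunit, had 9.8, 9.92 and 10.43 under DMF at 179.2 mg/kg, against 9.55, 9.68 and 9.97 in vehicle. It rose by 0.33 ± 0.10 (adjusted p = 0.03), with 4 arrays above the vehicle range. In a direct comparison of DMF at 179.2 mg/kg with DMF at 100 mg/kg, Uqcrq and the complex I subunit Ndufv3 were called, beside 0.59% of all genes.

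In complex IV 2 of 14 genes rose, and in complex V 6 of 17. Cox6b2, an isoform of Cox6b known for its expression in testis, had 5.97, 6.13 and 6.44 under DMF at 179.2 mg/kg, against 5.25, 5.79 and 5.99 in vehicle. Of 8 arrays, 7 were above every vehicle array and the difference was 0.43 ± 0.11 (adjusted p = 0.0111). Its signal here was low: the filter level of the tissue was 5.24, next to the lowest vehicle array. Cox8a, the widely expressed isoform of the smallest subunit, had 9.87, 10.09 and 10.46 against 9.72, 9.79 and 10.16 in vehicle. It rose by 0.29 ± 0.08 (adjusted p = 0.0155), with 3 arrays above the vehicle range. In complex V, Atp5a1, the catalytic-domain alpha subunit, had 11.73, 11.84 and 12 against 11.57, 11.7 and 11.74 in vehicle. It rose by 0.16 ± 0.04 (adjusted p = 0.0107), with 7 of 8 arrays above the vehicle range. Atp5l, a membrane subunit, had 10.99, 11.14 and 11.41 against 10.88, 10.91 and 11.05 in vehicle, and rose by 0.21 ± 0.05 (adjusted p = 0.00467), with 6 arrays above the vehicle range.

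**Figure D3:**
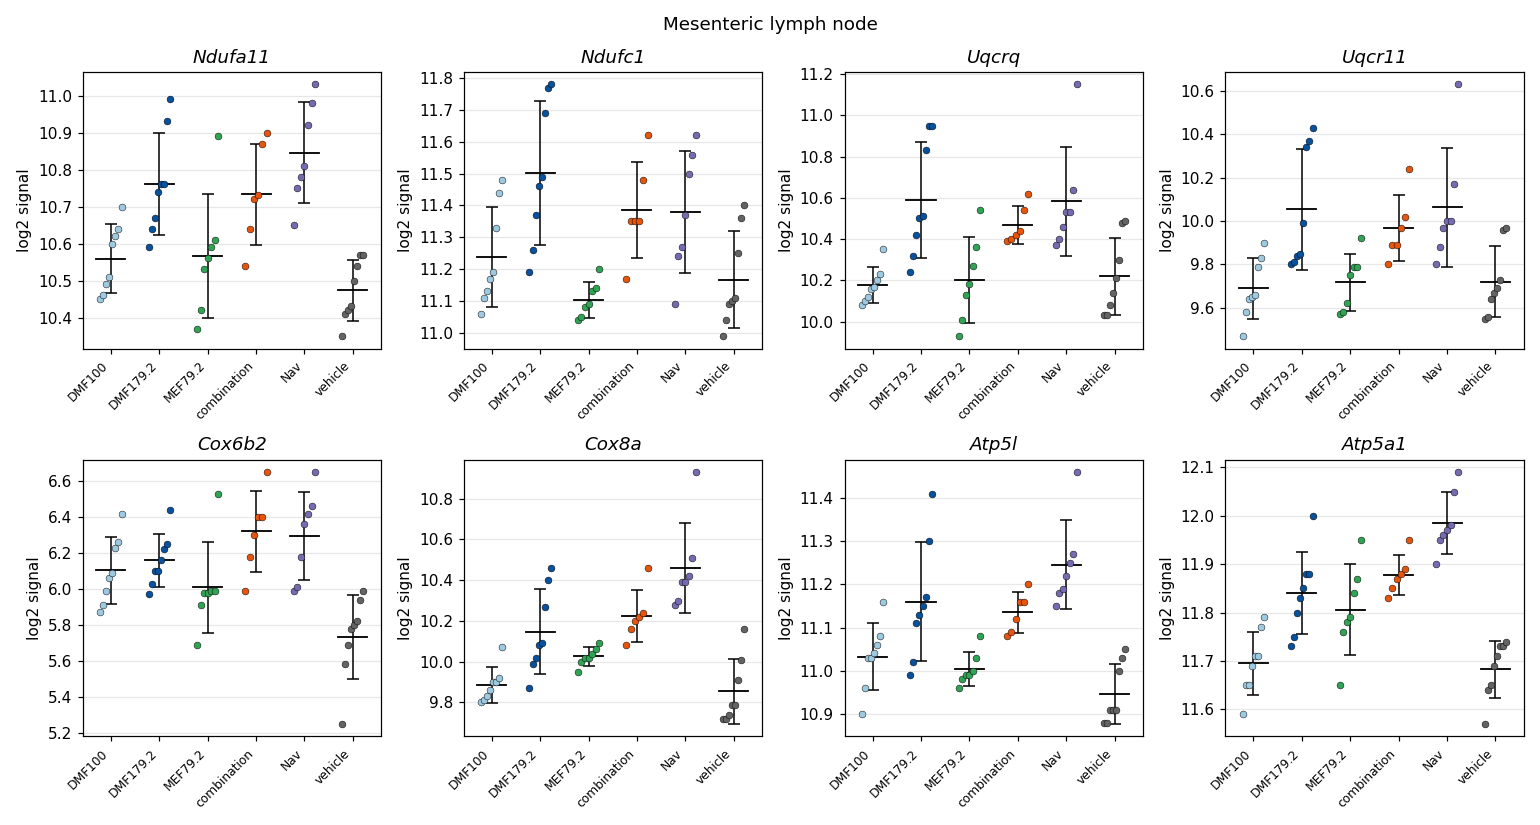
Log2 expression in each mesenteric node array of the genes the text describes, with a point for each array and lines for the group mean and SD. All 8 Ndufa11 arrays of DMF at 179.2 mg/kg, from 10.59 to 10.99, lie above the highest vehicle array, at 10.57, and all 6 Atp5a1 arrays of the combination, from 11.83 to 11.95, above the highest at 11.74.

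The combination, which holds the same total ester dose of 179.2 mg/kg, raised 18 of the 71 genes and lowered none, beside 12.7% of all genes called and 9.16% that rose. The median of the 71 differences was 0.13, against 0.06 for all genes. The number that rose was 4 when arrays were centred on their medians, and the share of all calls that rose was 29.7% instead of 71.9%. Of the calls, 9 were in complex I, none in complex III, 2 in complex IV and 7 in complex V. Ndufb4, an accessory subunit of complex I, had 11.28, 11.47 and 11.67 in the 6 combination arrays, against 11.06, 11.2 and 11.33 in vehicle, and rose by 0.28 ± 0.06 (adjusted p = 0.00397). Ndufv1, which holds the NADH site, had 10.78, 10.92 and 11.24 against 10.39, 10.7 and 10.94 in vehicle, and rose by 0.29 ± 0.10 (adjusted p = 0.0499), with 3 arrays above the vehicle range. Cox6b2 had 5.99, 6.35 and 6.65 and rose by 0.59 ± 0.11 (adjusted p = 0.00173). Cox8a had 10.08, 10.21 and 10.46 and rose by 0.37 ± 0.08 (adjusted p = 0.00508). Atp5a1, with 11.83, 11.87 and 11.95, lay above every vehicle array in all 6 combination arrays, as did Atp5l with 11.08, 11.14 and 11.2. Between DMF at 179.2 mg/kg and the combination no gene of the chain was called in this tissue, beside 0.00937% of all genes, and no call came from MEF alone, beside 4.75% of all genes.

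Some cell markers moved with these groups. Hybridisation controls averaged 11.69 under DMF at 179.2 mg/kg and 11.75 in the combination, against 11.71 in vehicle. Under DMF at 179.2 mg/kg, 3 of 7 B cell markers fell (Cd22 by 0.36, Cr2 by 0.42 and Spib by 0.29), and the mean level of the 7 markers was 10.18 to 11.14 under DMF at 179.2 mg/kg, against 10.94 to 11.3 in vehicle; none of the 7 fell in the combination. Cd68, 1 of 6 macrophage markers, rose by 0.32 under DMF at 179.2 mg/kg and by 0.41 in the combination, and the mean of the 6 was 9.39 to 9.61 under DMF at 179.2 mg/kg and 9.42 to 9.65 in the combination, against 9.11 to 9.55 in vehicle. None of the 5 adipocyte markers was called, with median differences of 0.22 under DMF at 179.2 mg/kg and 0.2 in the combination. Their mean level was 11.49 to 12.41 under DMF at 179.2 mg/kg and 11.35 to 12.33 in the combination. In vehicle it was 10.91 to 12.17. In this tissue 1 array of DMF at 179.2 mg/kg and 1 of Nav correlated less with their group than the other arrays did. Without them 15 genes rose under DMF at 179.2 mg/kg, with a median of 0.12, and 19 in the combination. The part of these cells in the result was not tested.

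Other mitochondrial gene lists were counted in the same fit, beside the 7.88% of all genes called under DMF at 179.2 mg/kg and the 12.7% in the combination. Of 73 genes of the mitochondrial ribosome, 13 rose and none fell under DMF at 179.2 mg/kg, and 24 rose and 2 fell in the combination, with medians of 0.12 and 0.14. Of 37 assembly factors, 6 rose and none fell under DMF at 179.2 mg/kg, led by Cox19 (0.49 ± 0.10), a copper-handling factor of complex IV. Of 15 genes of the tricarboxylic acid cycle, Pdhx and Pdhb, both parts of pyruvate dehydrogenase, rose. Sdhb, the iron-sulfur subunit of complex II, rose by 0.24. Of 65 cytosolic ribosomal genes, none was called under DMF at 179.2 mg/kg and 1 fell in the combination. Among regulators under DMF at 179.2 mg/kg, Tfam, which packages mitochondrial DNA, fell by 0.17 ± 0.05 (adjusted p = 0.0386). The exposure check, Nqo1, rose by 1.98 under DMF at 179.2 mg/kg and by 1.57 in the combination.

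In the jejunum, the higher DMF dose raised 16 of 71 genes and lowered 2, beside 27.4% of all genes called, of which 15.6% rose and 11.8% fell; the share of these genes was close to that of all genes. In complex I, 11 of 33 genes were higher and none lower, and the other 7 calls lay in complexes III to V. The median over the 71 genes was 0.05, against 0.02 for all genes. With arrays centred on their medians, 8 rose and 2 fell, and 45.7% of all calls were rises instead of 56.9%. Hybridisation controls also differed, at a mean of 11.86 under DMF at 179.2 mg/kg against 12 in vehicle, and with them as a covariate 6 genes were called. Among cell markers under DMF at 179.2 mg/kg, 2 of 6 of enterocytes rose (Alpi and Fabp1, by 0.19 each) and Anpep fell by 0.13, Acta2, 1 of 5 of smooth muscle, fell by 0.32, and C1qa, 1 of 6 of macrophages, fell by 0.63. The mean enterocyte level was 13.4 to 13.56 under DMF at 179.2 mg/kg, against 13.34 to 13.54 in vehicle, that of smooth muscle 10.13 to 11.06 against 10.67 to 11.53, and that of macrophages 5.85 to 6.69 against 6.21 to 6.64. Their part in the result was not tested.

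Ndufb4 in the jejunum had 12.28, 12.31 and 12.45 under DMF at 179.2 mg/kg, against 11.96, 12.01 and 12.08 in vehicle. All 7 arrays were above every vehicle array and the difference was 0.33 ± 0.05 (adjusted p = 3.7e-05). Across the DMF doses it had 11.93, 12.11 and 12.22 at 100 mg/kg, a difference of 0.07 ± 0.06 (adjusted p = 0.761), and the difference between 179.2 and 100 mg/kg was 0.26 ± 0.06 (adjusted p = 0.00472). In that direct comparison, 5 genes of the chain rose (Ndufb4, Ndufb5, Ndufa12, Ndufa3 and Uqcrc2), beside 11.6% of all genes called. Ndufv1 had 12.02, 12.28 and 12.4 under DMF at 179.2 mg/kg, against 11.7, 11.99 and 12.09 in vehicle, with 6 of 7 arrays above the vehicle range, and rose by 0.29 ± 0.08 (adjusted p = 0.006). Ndufa12, an accessory subunit, had 12.06, 12.17 and 12.28 against 11.94, 11.96 and 12.01 in vehicle. All 7 treated arrays were above every vehicle array and it rose by 0.21 ± 0.04 (adjusted p = 0.000633).

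Outside complex I, 5 genes rose and 2 fell in the jejunum. Uqcrc2, a core protein of complex III, had 13.03, 13.1 and 13.25 under DMF at 179.2 mg/kg, against 12.81, 12.97 and 13.02 in vehicle, with all 7 arrays above the vehicle range, and rose by 0.17 ± 0.05 (adjusted p = 0.00496). Cox7a1, the isoform known from heart and muscle, had 10.55, 10.88 and 10.99 against 10.36, 10.59 and 10.77 and rose by 0.24 ± 0.09 (adjusted p = 0.047), with 5 arrays above the range. Atp5o, of the complex V stalk, had 12.55, 12.62 and 12.67 against 12.42, 12.55 and 12.57 in vehicle, and rose by 0.09 ± 0.03 (adjusted p = 0.0383). Cox8a went the other way here. It had 10.36, 10.65 and 10.84 against 10.76, 10.86 and 10.93 in vehicle, and fell by 0.20 ± 0.06 (adjusted p = 0.00817), with 5 arrays below the vehicle range. Cox7a2l fell by 0.17 ± 0.06 (adjusted p = 0.023), at 11.49, 11.6 and 11.75 against 11.56, 11.79 and 11.91 in vehicle. In the combination 3 genes were called, all in complex I and all higher (Ndufa12, Ndufb4 and Ndufb5), beside 3.84% of all genes called, and none passed with the hybridisation controls as a covariate. Ndufb5 had 12.59, 12.65 and 12.8 in the 8 combination arrays, all above the 12.44, 12.49 and 12.56 of vehicle, and rose by 0.16 ± 0.04 (adjusted p = 0.021). MEF alone gave no call, beside 0.111% of all genes.

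The other mitochondrial lists in the jejunum under DMF at 179.2 mg/kg are read beside the 27.4% of all genes called there. Of 37 assembly factors 12 rose and none fell, led by Timmdc1 (0.52 ± 0.07) and Coa7 (0.61 ± 0.11), factors of complexes I and IV. Of 73 mitochondrial ribosomal genes, 21 rose and 3 fell. Of 15 tricarboxylic acid cycle genes 5 rose, with Pdhx, Idh3b and Dlat at the lowest adjusted p. Of 18 regulators, 5 rose, among them Polg2 (0.51 ± 0.10) and Twnk (0.41 ± 0.09) of mitochondrial DNA replication, and 2 fell, Nrf1, the gene of NRF-1, by 0.80 ± 0.23 and Esrra, an oestrogen-related receptor, by 0.33 ± 0.07. Of 64 cytosolic ribosomal genes, 18 fell and 1 rose.

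In the spleen, 16 of 69 genes rose and 2 fell under DMF at 179.2 mg/kg, beside 24.4% of all genes called. In complex I, 11 of 33 genes rose and none fell. The median over the 69 genes was 0.04 and so was that of all genes. Centred on array medians, 11 genes rose and 13 fell, so the split of directions in this tissue depends on the scale, and 37.9% of all calls were rises instead of 69.1%. DMF at 100 mg/kg, MEF and the combination gave no call, beside 0.834%, 0% and 0.0284% of all genes. In direct comparisons the higher DMF dose raised 2 genes over DMF at 100 mg/kg, Ndufv1 and Ndufc1, beside 2.56% of all genes called. Against the combination it raised 3 (Ndufv1, Ndufa5 and Ndufb4), beside 5.64%.

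Ndufv1 in the spleen had 10.89, 11.12 and 11.26 under DMF at 179.2 mg/kg, against 10.46, 10.67 and 10.96 in vehicle, and 7 of 8 arrays lay above the vehicle range. It rose by 0.42 ± 0.08 (adjusted p = 0.0012). DMF at 100 mg/kg gave 10.59, 10.7 and 11.04 and the combination 10.5, 10.67 and 11.02, each within 0.04 of vehicle, and the higher dose exceeded them by 0.38 ± 0.08 (adjusted p = 0.0312) and 0.41 ± 0.08 (adjusted p = 0.0136). Ndufa1, an accessory subunit, had 10.61, 10.71 and 10.75 against 10.34, 10.38 and 10.41 in vehicle, with all 8 arrays above every vehicle array, and rose by 0.33 ± 0.06 (adjusted p = 0.000623). Uqcrc2 had 12.16, 12.3 and 12.48 against 11.97, 12.07 and 12.18 in vehicle, and rose by 0.23 ± 0.06 (adjusted p = 0.00838). Cox6c, a complex IV subunit, had 11.78, 11.95 and 12.01 against 11.48, 11.67 and 11.71 in vehicle, with all 8 arrays above the range, and rose by 0.27 ± 0.05 (adjusted p = 0.000801). Atp5md, a small ATP synthase subunit, rose by 0.17 ± 0.04 (adjusted p = 0.004), at 11.28, 11.42 and 11.45 against 11.08, 11.25 and 11.28 in vehicle.

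In the spleen, 2 genes of the complex IV list fell. Cox7a2l had 11.68, 11.85 and 11.92 under DMF at 179.2 mg/kg, against 11.89, 11.96 and 12.02 in vehicle, and fell by 0.15 ± 0.04 (adjusted p = 0.00713), with 7 arrays below the range. Cox7c had 9.61, 9.89 and 9.99 against 9.98, 10.1 and 10.16 in vehicle, and fell by 0.24 ± 0.08 (adjusted p = 0.0192), with 6 arrays below the range. Markers of red cell precursors moved with the group. Of 9 erythroid markers, 6 rose (Ank1, Epor, Gata1, Kel, Klf1 and Tfr2, by 1.44 to 2.67), and the mean level of the 9 was 9.33 to 10.65 under DMF at 179.2 mg/kg, against 6.13 to 9.94 in vehicle. The difference between 3' and 5' control probe sets, a measure tied to RNA quality, was 1.39 under DMF at 179.2 mg/kg, against 1.2 in vehicle, and with it as a covariate no gene of the chain was called, beside 0.18% of all genes. Of 7 B cell markers, 3 fell (Cd79b by 0.11, Cr2 by 0.24 and Spib by 0.26), with a mean level of the 7 of 11.78 to 11.97 under DMF at 179.2 mg/kg, against 11.93 to 12.1 in vehicle. C1qa, 1 of 6 macrophage markers, fell by 0.32, and the mean of the 6 was 9.48 to 10.06 under DMF at 179.2 mg/kg, against 9.34 to 10.19 in vehicle. The part of these cells in the result was not tested. In the other lists, 18 of 73 mitochondrial ribosomal genes rose and 1 fell, 6 of 15 tricarboxylic acid cycle genes rose, 5 of 37 assembly factors rose and 1 fell, and 18 of 64 cytosolic ribosomal genes fell, beside 24.4% of all genes called.

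In the kidney, 6 of 72 genes rose and 1 fell under DMF at 179.2 mg/kg, or 9.72%, beside 16.7% of all genes called. With arrays centred on their medians, 2 genes were called. None of the 34 complex I genes was called. Complex III gave 3 rises in its 7 genes (Uqcr10, Uqcrc1 and Uqcrq), complex V 2 (Atp5e and Atp5g1), and complex IV 1 rise and 1 fall. Uqcrq had 11.92, 12 and 12.12 under DMF at 179.2 mg/kg, against 11.83, 11.89 and 11.94 in vehicle, and rose by 0.12 ± 0.04 (adjusted p = 0.034), with 7 of 8 arrays above the range. Cox6b2 had 9.29, 9.48 and 9.88 against 8.86, 9.22 and 9.46 in vehicle, and rose by 0.31 ± 0.07 (adjusted p = 0.00228). Cox7a2l fell by 0.14 ± 0.03 (adjusted p = 0.0021), at 11.47, 11.55 and 11.61 against 11.55, 11.72 and 11.76 in vehicle. Atp5e, the epsilon subunit, had 12.73, 12.78 and 12.79 against 12.62, 12.7 and 12.75 in vehicle, and rose by 0.08 ± 0.02 (adjusted p = 0.00941).

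The combination was the kidney group of DMF or MEF with the most calls: 12 genes rose and 5 fell, beside 30.3% of all genes called. Fitted with vehicle as a pair alone, 6 genes were called, and 11 with arrays centred on their medians or with the hybridisation controls as a covariate. Complex I gave 3 rises and 3 falls, complex III 3 rises, complex IV 2 rises and 1 fall, and complex V 4 rises and 1 fall. Among the other probe sets of the called genes, 10 of 14 had the same direction as the brightest. Uqcrq had 11.91, 12.02 and 12.23 and rose by 0.14 (adjusted p = 0.00572). Cox8a had 11.8, 11.93 and 12.11, against 11.75, 11.81 and 11.85 in vehicle, with 7 of 8 arrays above the range, and rose by 0.15 ± 0.04 (adjusted p = 0.00751). Ndufa4l2, an isoform of Ndufa4 known to respond to low oxygen, had 6.39, 6.77 and 6.95 against 5.98, 6.39 and 6.78 in vehicle, and rose by 0.27 ± 0.09 (adjusted p = 0.0269). Cox6c fell by 0.17 (adjusted p = 0.0133), at 12.16, 12.35 and 12.53 against 12.4, 12.51 and 12.61 in vehicle, and fell also under MEF, by 0.19 ± 0.05 (adjusted p = 0.0193), at 12.12, 12.36 and 12.54. Ndufb5, a complex I subunit, fell by 0.17 ± 0.06 (adjusted p = 0.0273), with 3 arrays below the range and 1 above it, at 12.38, 12.68 and 12.9 against 12.64, 12.81 and 12.87. Atp5h, of the complex V stalk, fell by 0.11 ± 0.03 (adjusted p = 0.00423), at 13.09, 13.2 and 13.24 against 13.19, 13.31 and 13.39 in vehicle.

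MEF alone gave 3 kidney calls, Uqcrc1 higher and Cox6c and Atp5h lower, beside 14.2% of all genes. Uqcrc1, a core protein of complex III, had 11.13, 11.15 and 11.25 under MEF, against 10.96, 11.02 and 11.15 in vehicle, and rose by 0.12 ± 0.04 (adjusted p = 0.0333). In the direct comparison of DMF at 179.2 mg/kg with the combination, Ndufb5 (0.18) and Ndufa1 (0.12) were higher and Ndufv1 (-0.13) and Cox7a2l (-0.09) were lower, beside 11.4% of all genes called. Of 5 markers of the thick ascending limb and distal tubule, 4 fell in the combination (Calb1, Pvalb, Slc12a3 and Umod, by 0.16 to 0.28), and the mean level of the 5 was 11.51 to 11.82 in the combination, against 11.72 to 11.95 in vehicle; none of the 5 passed under DMF at 179.2 mg/kg. Under MEF, 2 fell, Calb1 by 0.26 and Slc12a3 by 0.14, with a mean level of 11.58 to 11.8 under MEF, against the same vehicle range. Of 5 proximal tubule markers, Slc22a6 rose by 0.21 and Slc5a2 by 0.14 in the combination. The mean of these 5 was 12.01 to 12.11, against 11.94 to 12.04 in vehicle. Slc22a6 also rose by 0.19 under MEF and by 0.15 under DMF at 179.2 mg/kg. Csf1r, 1 of 4 macrophage markers tested, fell by 0.37 in the combination. Under DMF at 179.2 mg/kg, Cd68 rose by 0.31 and Lep, 1 of 5 adipocyte markers, by 1.07. No brown fat marker was called. Their part in the result was not tested. Mitochondrial ribosomal genes in the kidney gave 25 rises and 1 fall of 73 under DMF at 179.2 mg/kg, beside 16.7% of all genes called, and 24 rises and 3 falls in the combination, beside 30.3%. The other lists were mixed or fell. In the combination, 7 of 37 assembly factors rose and 5 fell, and 1 of 15 tricarboxylic acid cycle genes rose and 3 fell. Of 20 regulators 0 rose and 7 fell, and of 64 cytosolic ribosomal genes 2 rose and 13 fell.

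The inguinal node, brain and blood gave few calls. In the inguinal node, no gene of the chain was called in any group, beside 0.379% of all genes under DMF at 179.2 mg/kg, 0.0474% in the combination, 0.00947% under MEF and 0.0189% under Nav. Under DMF at 179.2 mg/kg, 68 of 71 differences lay above 0, with a median of 0.07 against 0.03 for all genes. These differences come from the same arrays, so they are not separate results. In the brain, Cox6b2 was the gene called under DMF at 179.2 mg/kg, beside 1.09% of all genes, and no gene under the combination (0.297% of all genes). It had 7.71, 7.96 and 8.16 against 7.4, 7.52 and 7.7 in vehicle, with all 8 arrays above every vehicle array, and rose by 0.40 ± 0.06 (adjusted p = 0.000247). MEF gave 2 brain calls, beside 0.362% of all genes. Neither passed without the 2 arrays of low correlation in this tissue, MEF replicate 25 and replicate 24 of DMF at 179.2 mg/kg, or with MEF and vehicle fitted as a pair alone. Ndufa11 rose by 0.19 ± 0.04 (adjusted p = 0.0329), at 11.77, 11.85 and 12.23 against 11.65, 11.7 and 11.79 in vehicle. Uqcrb, a complex III subunit, fell by 0.14 ± 0.03 (adjusted p = 0.0406), at 11.74, 11.88 and 11.94 against 11.96, 12 and 12.05, with all 7 arrays below the range. In the blood, Ndufa9, an accessory complex I subunit, was the gene called, under DMF at 179.2 mg/kg, beside 1.34% of all genes. It fell by 0.33 ± 0.08 (adjusted p = 0.0338), at 7.89, 8.2 and 8.46 against 8.23, 8.56 and 8.65 in vehicle. Blood gave no call under MEF, the combination or Nav, beside 0%, 0% and 0.0193% of all genes.

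Direct comparisons of DMF at 179.2 mg/kg with DMF at 100 mg/kg called no gene of the chain in the kidney (1.36% of all genes called), the brain (0.0186%), the inguinal node (0.00947%) or the blood (0%). Against the combination, DMF at 179.2 mg/kg gave no call in the chain in the brain (0.00929% of all genes), nor in the jejunum, inguinal node and blood, where 0% of all genes were called.

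Cox6b2 was called in 8 of the 35 comparisons with vehicle, all of them rises, the highest number of rises of any gene of the chain. Ndufb5, with 5 rises and 3 falls, and Cox6c, with 4 rises and 4 falls, had as many calls. It was higher under DMF at 179.2 mg/kg in the mesenteric node, spleen, kidney and brain, in the combination in the mesenteric node and kidney, and under Nav in the mesenteric node and brain. In the spleen it had 8.5, 9.08 and 9.69 under DMF at 179.2 mg/kg, against 7.09, 7.78 and 9.15 in vehicle, a difference of 1.17 ± 0.29 (95% interval 0.58 to 1.75, adjusted p = 0.00541). Only 4 of 8 arrays cleared the vehicle range there. In the jejunum, inguinal node and blood it did not pass the test under DMF at 179.2 mg/kg, with differences of 0.43, 0.35 and 0.07. The interaction of tissue and DMF at 179.2 mg/kg had an adjusted p of 0.00476 for this gene. A single probe set measured this gene, and in the mesenteric node its lowest vehicle array lay at the filter level.

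**Figure D4:**
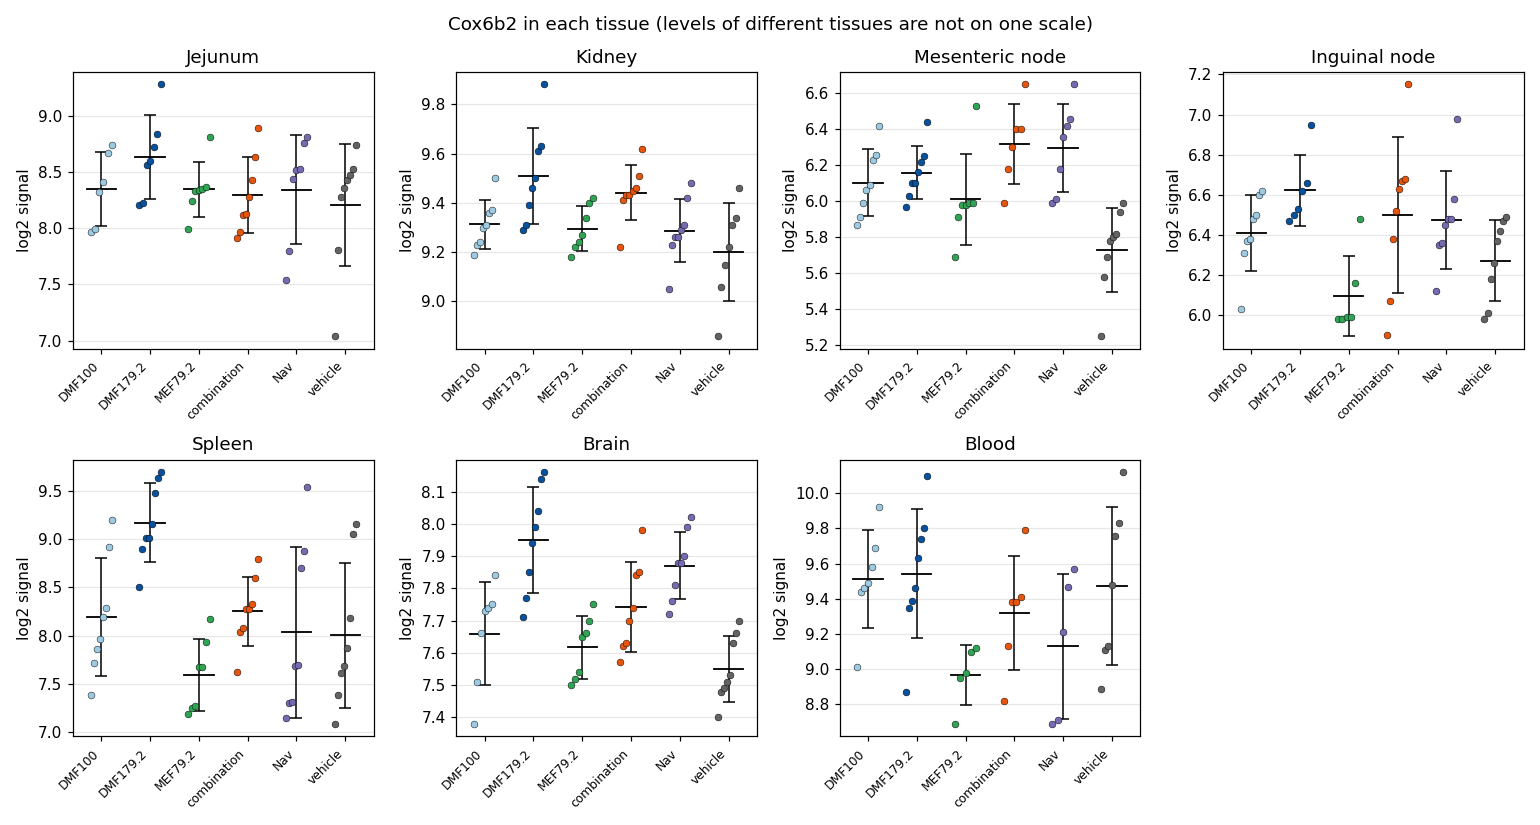
Cox6b2 log2 expression in every array by tissue and group, with a point for each array and lines for the group mean and SD; levels of different tissues are not on 1 scale. The brain arrays of DMF at 179.2 mg/kg lie between 7.71 and 8.16, all above the vehicle arrays.

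For some genes the difference from vehicle varied between tissues. Over 69 genes tested in every tissue, the interaction of tissue and treatment passed at an adjusted p under 0.05 for 33 genes under DMF at 179.2 mg/kg, 7 under MEF, 12 in the combination, 50 under Nav and none under DMF at 100 mg/kg. The same test called 35.1%, 9.28%, 16.1%, 61.1% and 3.52% of the 7849 genes. Under MEF and in the combination the share of these genes was thus close to that of all genes. Cox8a was called in opposite directions in 2 tissues: under DMF at 179.2 mg/kg the differences were 0.29 in the mesenteric node and -0.20 in the jejunum, both called (interaction adjusted p = 0.00013). Its differences in the combination were 0.37 in the mesenteric node, 0.15 in the kidney and -0.08 in the jejunum, the last not called (interaction adjusted p = 0.000509). Under DMF at 179.2 mg/kg, Cox7a2l was lower in the jejunum, spleen and kidney (interaction adjusted p = 0.000205), Ndufa11 was higher in the mesenteric node (0.00415) and Ndufa9 was lower in the blood (1.24e-05). In the combination, Ndufb5 was higher in the jejunum and lower in the kidney (interaction adjusted p = 0.0195).

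**Figure D5:**
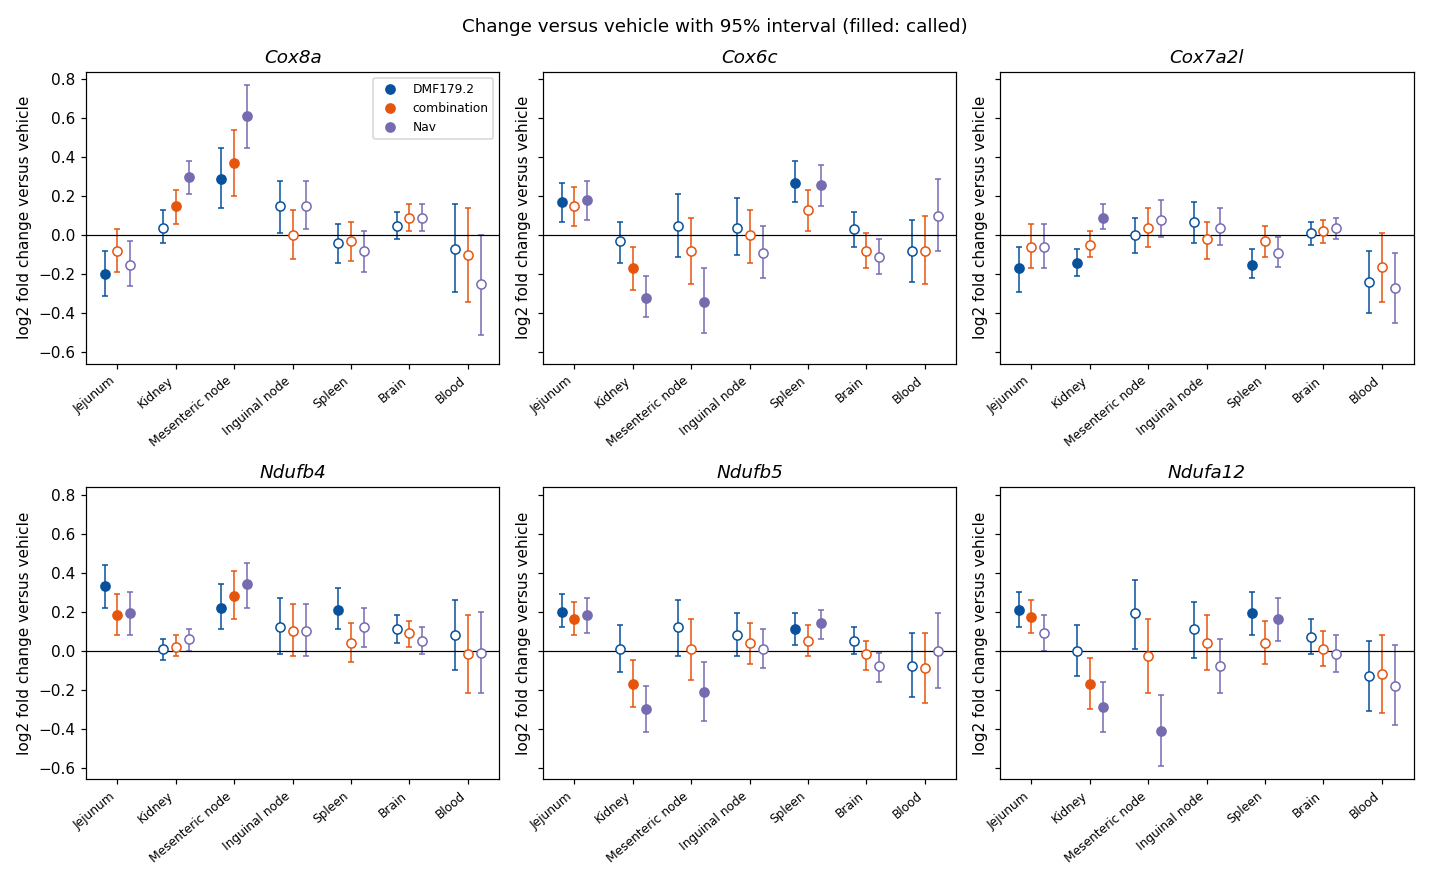
Log2 difference from vehicle with its 95% interval in each tissue, for 6 genes of the chain under DMF at 179.2 mg/kg, the combination and Nav; filled points passed an adjusted p under 0.05. Cox8a lies above 0 in the mesenteric node and below 0 in the jejunum under DMF at 179.2 mg/kg.

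The Nav group, whose treatment is not given in the labels, had more calls in the chain than any DMF or MEF group in the kidney and mesenteric node. In the mesenteric node 35 of 71 genes rose and 7 fell, beside 50.6% of all genes called, and in the kidney 24 of 72 rose and 14 fell, beside 49.8%. In the spleen 6 rose and 1 fell (13.4% of all genes called), in the jejunum 4 rose and none fell (7.87%), and in the brain 1 rose (3.83%). No gene of the chain was called in the spleen with the 3' minus 5' control as a covariate, or in the jejunum with the hybridisation controls as one. With arrays centred, the kidney gave 15 rises and 22 falls, and the mesenteric node 27 rises and 8 falls. The rises were 58.8% of all calls in the mesenteric node, 48.2% when centred, 60.2% in the kidney, 50.8% when centred, and 64.4% in the jejunum, 35.7% when centred, where 1 gene of the chain then rose and 3 fell. Nqo1 did not pass the test under Nav in any tissue. Hybridisation controls averaged 11.89 in the Nav arrays of the mesenteric node, against 11.71 in vehicle, and 12.01 in those of the kidney, against 11.82. With these controls as a covariate, 28 genes were called under Nav in the mesenteric node in place of 42. In the kidney 22 were called in place of 38.

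Cell markers also differed under Nav. In the mesenteric node both neutrophil markers tested rose (S100a8 by 0.97 and S100a9 by 1.39), the other 4 on the array lay below the filter, and the mean level of the 6 was 3.2 to 4.84 under Nav, against 3.1 to 3.61 in vehicle. Of 6 macrophage markers, 3 rose (C1qb, Cd68 and Csf1r, by 0.29 to 0.50), at a mean of 9.26 to 9.73 under Nav, against 9.11 to 9.55 in vehicle. Of 3 skeletal muscle markers tested, Mylpf rose by 0.36 and Tnni2 by 0.45, and the mean of the 10 on the array was 4.32 to 4.47 under Nav, against 4.13 to 4.31 in vehicle. Of 7 B cell markers, Cd79a rose by 0.25 and Ms4a1 fell by 0.58. Of 5 adipocyte markers, 1 rose, and the mean of the 5 was 11.14 to 12.33 under Nav, against 10.91 to 12.17 in vehicle. In the kidney, 3 of the 5 markers of the thick ascending limb and distal tubule fell (Calb1, Slc12a1 and Umod, by 0.24 to 0.32), at a mean of 11.72 to 11.8 under Nav, against 11.72 to 11.95 in vehicle, and 2 of 4 macrophage markers rose (Cd68 by 0.28 and Csf1r by 0.25). Of 5 proximal tubule markers there, Slc5a2 rose by 0.16 and Miox fell by 0.1. Their part in the result was not tested.

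Under Nav, calls went both ways within each complex in these tissues. These directions are those of the brightest probe set of each gene. Among the other probe sets of the called genes, 16 of 25 had the same direction in the mesenteric node. In the kidney 22 of 29 did. In the mesenteric node, Ndufa11 had 10.65, 10.81 and 11.03, Ndufv1 10.95, 11.1 and 11.42, and Cox8a 10.28, 10.39 and 10.93, all 7 arrays above the vehicle range in each case. Their differences were 0.37 (adjusted p = 1.38e-05), 0.44 ± 0.09 (0.000218) and 0.61 ± 0.08 (8.47e-08). Atp5a1, at 11.9, 11.97 and 12.09, rose by 0.30 ± 0.04 (adjusted p = 1.08e-07). Atp5g1, one of the genes for the membrane ring, had 10.92, 10.98 and 11.19 against 10.37, 10.68 and 10.76 in vehicle, and rose by 0.37 ± 0.06 (adjusted p = 3.09e-06). Cox6b2, at 5.99, 6.36 and 6.65, rose by 0.57 ± 0.11 (adjusted p = 4.64e-05), and Atp5l, at 11.15, 11.22 and 11.46, by 0.30 (adjusted p = 2.39e-06). Other genes fell. Ndufa12 had 9.94, 10.21 and 10.35 under Nav, against 10.34, 10.63 and 10.85 in vehicle, and fell by 0.41 ± 0.09 (adjusted p = 0.00024).

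Further falls in the mesenteric node came from complexes III to V. Uqcrb fell by 0.22 ± 0.06 (adjusted p = 0.00485), at 11.18, 11.3 and 11.39 under Nav, against 11.37, 11.5 and 11.66 in vehicle. Cox6c fell by 0.34 ± 0.08 (adjusted p = 0.000653), at 11, 11.15 and 11.26 against 11.16, 11.45 and 11.8. Atp5g3, another gene for the membrane ring, fell by 0.21 ± 0.05 (adjusted p = 0.00112), at 11.82, 12.04 and 12.11 against 12.12, 12.21 and 12.4, with all 7 arrays below the vehicle range. Of the 3 ring genes, Atp5g1 and Atp5g2 (0.31 ± 0.09) were thus higher and Atp5g3 lower.

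The kidney under Nav likewise had calls both ways. Cox8a had 12.01, 12.1 and 12.24, all 8 arrays above the vehicle range, and rose by 0.30 ± 0.04 (adjusted p = 7.18e-07). Uqcrq rose by 0.22 ± 0.04 (adjusted p = 1.99e-05), at 11.99, 12.08 and 12.27, also with all 8 above. Cox6c fell by 0.32 ± 0.05 (adjusted p = 7.68e-06), at 12.12, 12.17 and 12.34 with all 8 arrays below, and Ndufb5 fell by 0.30 ± 0.06 (adjusted p = 6.27e-05), at 12.32, 12.47 and 12.7 with 7 below. Ndufa12 fell by 0.29 ± 0.06 (adjusted p = 0.000287), at 11.5, 11.67 and 11.83 against 11.85, 11.96 and 12.02. Atp5h fell by 0.18 ± 0.03 (adjusted p = 7.25e-06), at 13.01, 13.13 and 13.18, with all 8 arrays below. In the spleen and jejunum the direction of Cox6c and Ndufb5 was opposite: under Nav, Cox6c rose by 0.26 in the spleen, at 11.62, 11.89 and 12.14, and by 0.18 in the jejunum, and Ndufb5 rose by 0.14 and 0.18. The interaction of tissue and Nav had adjusted p-values of 1.91e-12 for Cox6c, 1.55e-08 for Ndufb5, 3.64e-08 for Ndufa12, 2.77e-06 for Atp5h and 2.63e-16 for Cox8a. Ndufa9 fell in the spleen by 0.28 ± 0.07 (adjusted p = 0.00946), at 10.57, 10.73 and 10.95, against 10.95, 11.05 and 11.11 in vehicle.

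The direct difference from Nav, added after seeing the data, shows how far each group lay from that reference. Under DMF at 179.2 mg/kg, 18 genes were higher and 7 lower than under Nav in the mesenteric node (46.9% of all genes called) and 20 were higher and 20 lower in the kidney (52.7%). The combination had 5 higher and 2 lower in the mesenteric node (20.2%) and 1 higher and 10 lower in the kidney (26.2%). In the jejunum 1 gene was higher under DMF at 179.2 mg/kg (7.66%) and none moved in the combination (1%), and in the spleen 1 was higher under each (3.13% and 5.32%). Of the 26 genes called against vehicle in the mesenteric node under DMF at 179.2 mg/kg, 12 had the same direction against Nav, 4 of them called so and 4 called the opposite way. The share was 1 of 18 for the combination in that tissue, 17 of 18 in the spleen and 16 of 18 in the jejunum under DMF at 179.2 mg/kg, 3 of 7 in the kidney under DMF at 179.2 mg/kg and 2 of 17 in the kidney combination.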

How the data were processed

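RNA of 7 tissues was hybridised to Affymetrix HT MG-430 PM arrays. The authors deposited log2 expression values of 45141 probe sets in 1 table, and the tissues were normalized apart. The submitters' processing notes name RMA, GCRMA, R 2.11.1 and limma 3.4.5 without roles. Groups follow the array titles. Where a gene had several probe sets, the 1 brightest on average over all arrays stood for it. Genes above the 50th percentile of their tissue in at least 5 arrays were fitted per tissue with limma 3.58.1 (R 4.3.3), all 6 groups together. The adjusted p is Benjamini-Hochberg over all genes tested, with a threshold of 0.05. Tissue by treatment interactions used the 7849 genes tested in every tissue. The fits were tested on simulated data. The genes named are up to 4 called per complex and direction in each comparison, a list of core subunits and isoforms, and up to 3 called genes of each other list. The genes and lists were chosen with earlier results of these data known. Alternatives included other filters, scalings, covariates and left-out arrays. The number of arrays limits the precision.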

Additional observations from a re-analysis of the deposited data

Results flagged for a closer look

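In 126 groups of values of a single gene, 11 held an array far from the others by Dixon's criterion, which chance gives for about 1 group in 20, and none of the 42 groups of means over the chain did. In the mesenteric node under Nav, replicate 40 was high for Cox8a (10.93) and Atp5l (11.46) and replicate 47 was low for Atp5g3 (11.82), while vehicle replicate 2 was low for Atp5g1 (10.37). In the jejunum, Nav replicate 45 was high for Ndufb4 (12.37), and vehicle replicate 3 was low for Ndufv1 (11.70) and Atp5o (12.42). In the spleen, replicate 16 of DMF at 100 mg/kg was high for Ndufv1 (11.04), replicate 17 of DMF at 179.2 mg/kg was low for Ndufa1 (10.61), and vehicle replicate 5 was low for Atp5md (11.08). In the brain, MEF replicate 25 was high for Ndufa11 (12.23).

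Of 69 genes of the chain, the interaction test passed for 33 under DMF at 179.2 mg/kg, 7 under MEF, 12 in the combination and 50 under Nav. It passed for 35.1%, 9.28%, 16.1% and 61.1% of the 7849 genes tested in every tissue. The shares under MEF and in the combination were close to those of all genes. Under DMF at 179.2 mg/kg the adjusted p was 0.00013 for Cox8a, 0.00476 for Cox6b2, 0.000205 for Cox7a2l, 0.00415 for Ndufa11 and 1.24e-05 for Ndufa9. In the combination it was 0.000509 for Cox8a and 0.0195 for Ndufb5. Under Nav it was 2.63e-16 for Cox8a, 1.91e-12 for Cox6c, 1.55e-08 for Ndufb5, 3.64e-08 for Ndufa12 and 2.77e-06 for Atp5h.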

How the results depend on the processing

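The counts below are genes of the chain called, each beside the count given in the report, and the cause of each move was not tested. No alternative run called a gene in the inguinal node under DMF at 100 mg/kg, MEF or the combination. Of the alternatives tried for single named genes, 1261 kept the direction and the side of the threshold, 240 kept the direction and lost the call, and 6 turned the direction. When the probe sets of a gene were averaged, Atp5g1 in the kidney under DMF at 179.2 mg/kg was -0.02, Atp5h in the mesenteric node under Nav was 0.01, Cox5b and Uqcr10 in the kidney under Nav were 0.05 and -0.04, and Uqcr10 in the mesenteric node under Nav was -0.07. With the hybridisation control as a covariate, Ndufb5 in the mesenteric node under Nav was 0.01.

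Centring each array on its median gave 11 in place of 26 in the mesenteric node under DMF at 179.2 mg/kg and 4 in place of 18 in the combination, 10 in place of 18 in the jejunum and 2 in place of 7 in the kidney under DMF at 179.2 mg/kg, and 11 in place of 17 in the kidney combination. It gave 2 calls in the blood under DMF at 179.2 mg/kg in place of 1. Between DMF at 179.2 and at 100 mg/kg it gave 1 in place of 2 in the mesenteric node and 5 in place of 2 in the spleen, and between DMF at 179.2 mg/kg and the combination 7 in place of 3 in the spleen. Comparing each group with vehicle as a pair alone gave 10 calls in the mesenteric node and 3 in the kidney under DMF at 179.2 mg/kg, 6 in the kidney combination, 1 in the jejunum combination in place of 3, none in the blood under DMF at 179.2 mg/kg (0 in place of 1), 0 in the brain under MEF and 3 in the brain under Nav. Repeating the quantile normalization gave 3 in the kidney and 2 in the blood under DMF at 179.2 mg/kg, 1 in the brain under MEF, 3 in the brain under Nav and 4 in the mesenteric node under MEF in place of 0.

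The covariate of 3' minus 5' control signal removed every spleen call, 0 in place of 18 under DMF at 179.2 mg/kg and 0 in place of 7 under Nav, and gave 2 in the blood under DMF at 179.2 mg/kg. The hybridisation control covariate gave 6 in the jejunum under DMF at 179.2 mg/kg, 0 in the jejunum combination and 0 in the jejunum under Nav, 22 in place of 38 in the kidney under Nav, 11 in the kidney combination and 15 in place of 7 in the spleen under Nav. It gave 0 in the blood under DMF at 179.2 mg/kg, 2 in the brain under Nav, 1 in the inguinal node under Nav, and 1 each in the kidney and mesenteric node under DMF at 100 mg/kg. Between DMF at 179.2 mg/kg and the combination it gave 0 in place of 4 in the kidney and 12 in place of 3 in the spleen, and between the DMF doses 4 in the mesenteric node and 9 in the spleen.

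Array weights gave 12 in place of 17 in the kidney combination, the one count against vehicle that they lowered. Elsewhere they gave 40 in place of 18 in the mesenteric node combination, 29 in the spleen under DMF at 179.2 mg/kg and 24 under Nav, 10 in the brain combination, 8 in the brain under Nav, 4 each in the brain under DMF at 179.2 mg/kg and MEF, 9 in the kidney under MEF, 7 in the jejunum under Nav, and 5 and 2 in the inguinal node under DMF at 179.2 mg/kg and Nav. They gave 2 in the blood under DMF at 179.2 mg/kg, 2 under MEF and 1 under Nav, 2 in the mesenteric node and 1 each in the kidney and spleen under DMF at 100 mg/kg, 1 in the mesenteric node under MEF and 1 in the spleen combination. Without arrays of low correlation the mesenteric node gave 15 under DMF at 179.2 mg/kg, the brain 0 under MEF, 3 under Nav and 3 in the combination, and the kidney and mesenteric node 1 each under DMF at 100 mg/kg. Leaving out in turn each blood array of the MEF and Nav groups, of 5 arrays each, gave 1 to 2 calls under DMF at 179.2 mg/kg (2 without MEF array 25 or Nav array 40) and 0 to 1 under MEF (1 without Nav array 40). The 70th percentile filter gave 0 in the brain under DMF at 179.2 mg/kg, 1 in the brain combination and 1 in the mesenteric node under MEF. The mean of probe sets gave 1 in the brain combination, 5 in the kidney under MEF and 1 in the mesenteric node under MEF. No filter gave 1 in the brain combination, 1 and 5 in the kidney under DMF at 100 mg/kg and MEF, 4 in the spleen under Nav, 0 and 1 between the DMF doses in the mesenteric node and spleen, and 1 between DMF at 179.2 mg/kg and the combination in the spleen.

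Arrays of different tissues share numbers. The mean correlation of same-numbered arrays' deviations from their group means was 0.0567 to 0.251 over the pairs of tissues, against -0.0364 to -0.00807 for other numbers of the same group, the lowest single one was -0.513, and in no pair of tissues was every one above 0.1 or every array closest to its own number. In the kidney and mesenteric node, 35 of 43 were above 0.1 and 28 of 43 arrays were closest to their own number. The labels do not say what a number marks. With the number as a replicate block, the interaction of tissue and treatment passed for 0 genes under DMF at 100 mg/kg, 42 under DMF at 179.2 mg/kg, 11 under MEF in place of 7, 18 in the combination in place of 12 and 53 under Nav. With centred arrays it passed for 11 under MEF and 7 in the combination.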
